A study of Mus musculus with 12 samples.

Results

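The nuclear genes of oxidative phosphorylation were followed through the adult mouse hippocampus of 4 treatment groups. The set holds the protein-coding genes of GENCODE release M21 whose symbol starts with Ndufa, Ndufb, Ndufc, Ndufs, Ndufv, Sdha, Sdhb, Sdhc, Sdhd, Uqcr, Cox4, Cox5, Cox6, Cox7, Cox8 or Atp5 and whose summed value averaged 1 TPM or more over the 12 libraries, where TPM is a transcript level per transcript length that the deposited values carry after scaling between libraries. Of 35580 genes in the data, 22013 were protein coding, 98 of those carried one of the prefixes, and 96 reached the level. Grouped by prefix, the 96 members comprised 38 genes of complex I (Ndufa4 and its paralog Ndufa4l2 among them), 4 of complex II, 8 of complex III, 17 of complex IV and 17 of complex V, together with 12 assembly factors that the prefixes Ndufa and Sdha bring in (Ndufaf and Sdhaf genes). The 2 genes left out were Cox8c, listed at 0 in every library, and a second gene with the symbol Atp5o, with a mean of 0.115 TPM. The rule uses gene type, symbol and mean level, and all 96 members passed the filter on low values.

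RNA-Seq was performed on 1 hippocampal library from each of 12 male mice of strain C57BL/6, killed on postnatal day 70, with 3 mice per group. Control mice came from dams given water and stayed with dam and littermates. Ethanol mice came from dams with free choice between water and 10% ethanol, which per the labels spanned gestation. Per the study's methods it also preceded mating and was interrupted for it. It went on into the nursing period, over part of the days on which the stress treatment was given. Stress mice spent 3 h of each day alone, without dam or littermates, between postnatal days 2 and 14, and ethanol + stress mice received both treatments. Within a litter, pups were divided between the stressed and the undisturbed groups, and the litter of each library is not given in the sources used here. Ethanol intake was voluntary, so the dose was not set by the experimenter. The tissue was dissected whole, so each value is an average over neurons, glia and vessels, in which fewer cells of a type and less RNA per cell cannot be told apart. The 6 neuronal marker genes Snap25, Syt1, Rbfox3, Slc17a7, Camk2a and Neurod6 were present in every library, with sums of 2935 to 3391 TPM.

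Oxidative phosphorylation is carried out in the inner mitochondrial membrane. Complex I takes electrons from NADH and complex II from succinate. Both pass them through ubiquinone to complex III and on through cytochrome c to complex IV, which reduces oxygen. Complexes I, III and IV pump protons, and complex V, the ATP synthase, uses the proton gradient to make ATP. Most subunits are encoded in the nucleus and a small core in mitochondrial DNA, so that each complex except complex II is built from the products of both genomes. Neurons depend heavily on this pathway, because synaptic transmission and the restoration of ion gradients consume much ATP.

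Many genes of this pathway share short promoter motifs, among them those of nuclear respiratory factor 1 (NRF1), of the ETS family factor GABP and of YY1. A promoter window from RefSeq (build GRCm38.p6, 250 bases before to 50 after a start) was found for 78 of the 96 members, and those without one included Ndufb9, Ndufa2, Ndufs1, Ndufa4l2, Sdhc, Uqcrb, Uqcrc2, Uqcrq, Cox4i1, Cox6c, Cox6a2, Cox4i2, Atp5mpl, Atp5f1, Atp5a1, Atp5s and Ndufaf6. The palindromic NRF1 letters, GCGCA followed directly by TGCGC, occurred in 7 of the 78 member windows (8.97%) and in 0.977% of the windows of 27025 genes. The YY1 letters AAGATGGC, read on both strands, occurred in 10 member windows (12.8%) against 2.88% of all windows. Of those 10, 7 belonged to complex I (Ndufb8, Ndufa3, Ndufc1, Ndufs4, Ndufs6, Ndufs7 and Ndufa9), which held 33 of the 78 windows. The ETS letters CCGGAAGT, on both strands, occurred in 5 member windows (6.41%; Ndufs3, Uqcrh, Uqcr11, Cox8a and Atp5h) against 4.0% of all windows. None of the 3 motifs contains another, and 22 of 78 member windows (28.2%) held at least one of them, against 7.57% of all windows. Median GC content was 58% in the member windows and 52.67% in all windows. A match is a run of letters, and factor binding was not measured. The 5 members whose NRF1 letters lie before the start follow with 30 bases each, because this motif had the highest ratio of the share in member windows to that in all windows, and because Atp5g2 and Ndufaf4 return among the members with separated groups. Capitals mark the NRF1 letters.
Ndufa11, chr17:56717692-56717721, plus strand: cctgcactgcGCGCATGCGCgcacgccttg
Cox6a1, chr5:115349101-115349130, minus strand: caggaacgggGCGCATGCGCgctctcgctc
Atp5k, chr5:108434430-108434459, minus strand: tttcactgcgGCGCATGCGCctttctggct
Atp5g2, chr15:102671070-102671099, minus strand: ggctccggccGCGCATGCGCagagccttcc
Ndufaf4, chr4:24897960-24897989, plus strand: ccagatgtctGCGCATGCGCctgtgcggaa
The remaining 2 matches, in Uqcrc1 and Ndufaf5, lie after the start. In the GENCODE annotation the Atp5g2 stretch lies in the first exon of a longer transcript, and part of the Atp5k stretch lies in the first exon of Atp5k.

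The members were among the abundant RNAs of the hippocampus. Their summed level ran from 31453 to 51369 TPM, which is 3.50% to 4.41% of the total of a library. Complex I took 30.5% to 31.0% of that sum, complex III 10.5% to 11.3%, complex IV 27.8% to 29.4% and complex V 26.4% to 27.4%. With Ndufa4 and Ndufa4l2 counted in complex IV, where Ndufa4 is now placed, complex I took 27.2% to 28.2% and complex IV 30.7% to 32.3%. Complex II took only 1.64% to 2.17% and the assembly factors 1.05% to 1.22%. All levels are TPM, a measure per transcript length, so that genes can be set beside each other.

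Levels within a complex spanned a wide range. Cox8a, a small subunit of cytochrome c oxidase (chr19:7215153-7217616, minus strand, build GRCm38), led the whole set with a mean of 2259.5 TPM. It was followed by Atp5b, the catalytic beta subunit of ATP synthase (chr10:128083273-128090391, plus strand), at 1683 TPM and by Cox4i1 at 1671 TPM. Ndufa4, first described in complex I, led its prefix group with 1134 TPM, and Uqcrh, the hinge subunit of complex III, led complex III with 1105 TPM. Succinate dehydrogenase ranged from 250.1 TPM for the flavoprotein Sdha to 88.6 TPM for the membrane anchor Sdhc. The lowest members were Ndufa4l2 in complex I (3.65 TPM), Uqcrc1 in complex III (148 TPM), Cox7b2 in complex IV (1.80 TPM) and Atp5s in complex V (28.9 TPM). The assembly factors, which help to build the complexes without remaining in them, averaged from 5.84 TPM for Sdhaf3 to 63.95 TPM for Ndufaf5.

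Several subunits exist as paralogs, and in each such family of complex IV 1 form made up most of the RNA. Cox4i1 averaged 1671 TPM against 2.39 TPM for Cox4i2, the form known from lung and hypoxic cells. The forms typical of heart and skeletal muscle stood far below their partners. Cox6a2 averaged 11.3 TPM against 1088 TPM for Cox6a1. Cox7a1 averaged 15.4 TPM against 623 TPM for Cox7a2 and 356 TPM for Cox7a2l, a factor of supercomplex assembly. Cox8b averaged 11.99 TPM against 2259.5 TPM for Cox8a. The testis forms were also low, with Cox6b2 at 6.89 TPM against 964 TPM for Cox6b1 and Cox7b2 at 1.80 TPM against 464 TPM for Cox7b. The 3 genes for subunit c of ATP synthase, which encode the same mature protein, were less unequal, with 563 TPM for Atp5g3, 553 TPM for Atp5g1 and 40.9 TPM for Atp5g2. Ndufa4l2 averaged 3.65 TPM against 1134 TPM for Ndufa4.

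The dominant pattern among the members was a shift shared by almost all of them from library to library, which crossed the group labels. Ethanol replicate 2 had the highest of the 12 values for 61 of 96 members and ethanol + stress replicate 2 for 28. Ethanol replicate 3 had the lowest value for 43 members, ethanol + stress replicate 1 for 20 and stress replicate 2 for 18. Ethanol replicate 2 lay above a member's own mean of log2(TPM + 0.5) in 94 members and ethanol replicate 3 in 3. The median deviation of the members from their own mean was -0.02, -0.10 and -0.15 in the control libraries and 0.00, 0.35 and -0.29 in the ethanol libraries. It was 0.11, -0.21 and -0.03 in the stress libraries and -0.23, 0.35 and 0.24 in the ethanol + stress libraries. The 3 control libraries thus lay close together, while the treated groups each held libraries on both sides of them.

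**Figure D1:**
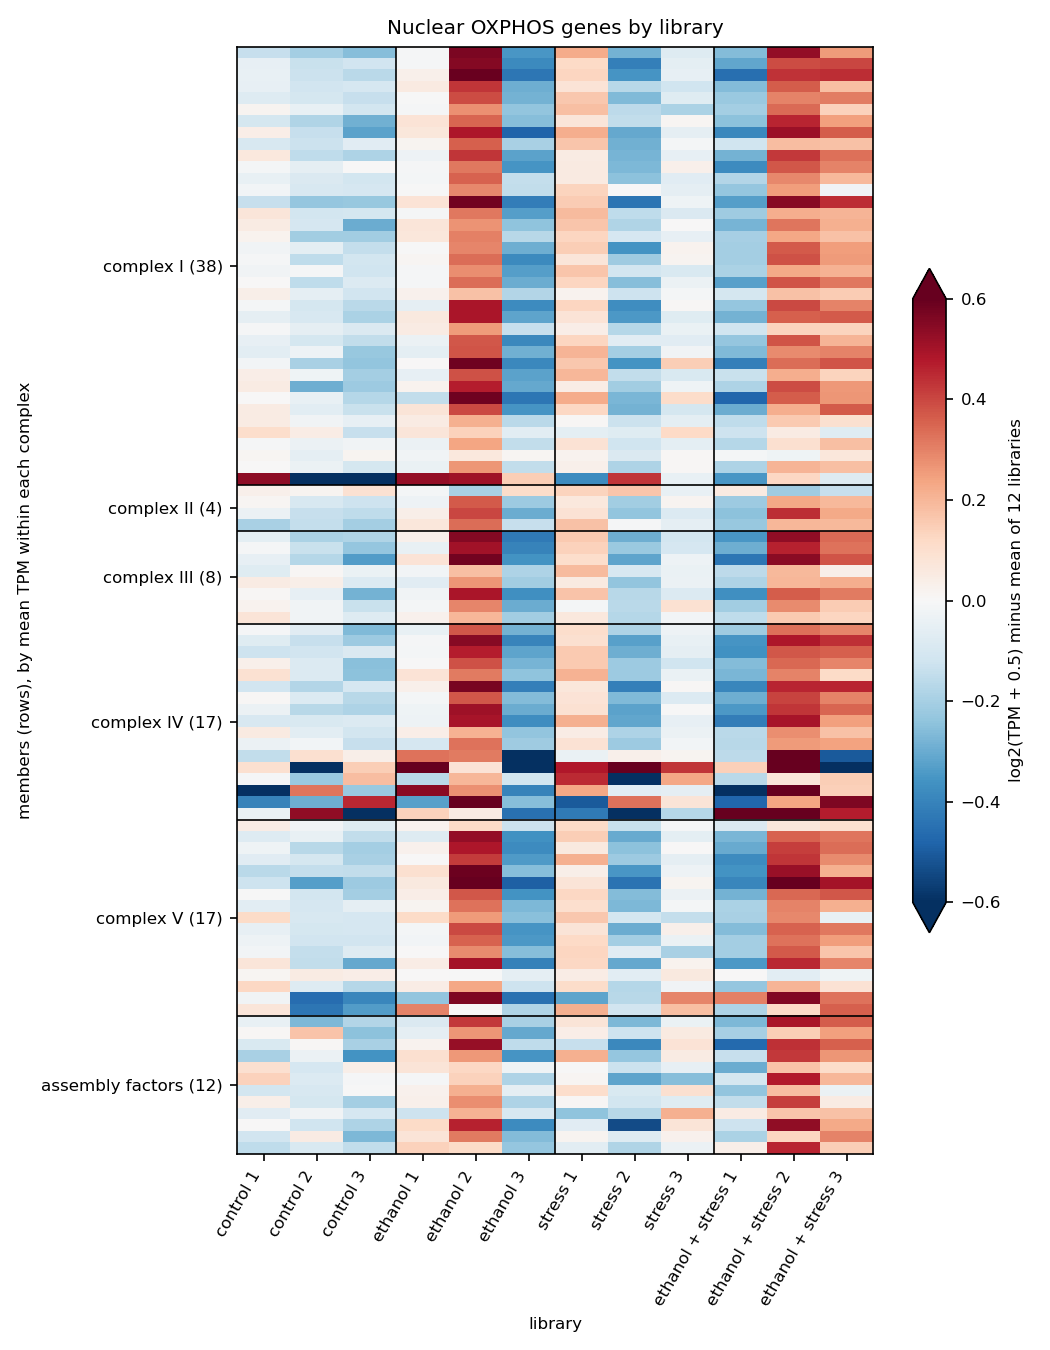
Deviation of log2(TPM + 0.5) from the mean of 12 libraries for each of the 96 members (rows, by complex and mean level) in each library (columns, by group); the color scale ends at 0.6 in either direction. The columns of ethanol replicate 2 and ethanol + stress replicates 2 and 3 are high and those of ethanol replicate 3, stress replicate 2 and ethanol + stress replicate 1 are low through nearly all rows of all complexes.

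Each treatment was compared with control to ask whether the pathway differed in the adult hippocampus after prenatal ethanol, early life stress or both. No member was called, at an unadjusted p under 0.01 in limma, in any of the 3 comparisons, in the interaction of ethanol and stress or in the test of any difference among the 4 groups. Of all 18434 genes tested, 0.678% were called for ethanol, 0.51% for stress, 0.971% for ethanol + stress, 0.461% for the interaction and 0.721% for any difference. At an unadjusted p under 0.05 there were 0 members for ethanol (3.63% of all genes), 0 for stress (2.4%), 3 for ethanol + stress (5.37%; Atp5g2, Cox7b2 and Sdhaf3, all higher), 0 for the interaction (2.69%) and 1 for any difference (3.51%; Cox7b2). The smallest adjusted p of a member was 0.791. The within-group SD on the log2 scale had a median of 0.25 over the members and 0.22 over all genes tested.

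The estimates themselves leaned upward. After ethanol, 88 of 96 members had a positive log2 fold change, with a median of 0.12, beside 55.6% of all genes and a median of 0.02. After stress, 74 members had a positive value, with a median of 0.04, beside 51.5% and 0.00. After ethanol + stress, 92 had a positive value, with a median of 0.20, beside 54.1% and 0.02. These 3 comparisons share the control libraries, whose median deviations were all below 0, so that they are not separate pieces of evidence. The members share library shifts, so that a count of positive values over members is not a count of independent observations. The interaction had a median of 0.04 over the members, with 68 positive, and -0.01 over all genes. With libraries rescaled to a common total, the medians of the members were 0.04 for ethanol, 0.02 for stress, 0.07 for ethanol + stress and 0.01 for the interaction, and those of all genes were -0.05, -0.01, -0.09 and -0.04.

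The medians hung on single libraries. For ethanol the median was -0.05 without ethanol replicate 2 and 0.29 without ethanol replicate 3. For stress it was -0.04 without stress replicate 1 and 0.13 without stress replicate 2. For ethanol + stress it was 0.39 without ethanol + stress replicate 1, and 0.09 and 0.14 without replicates 2 and 3. Leaving out ethanol + stress replicate 1 also gave 2 called members, Ndufa1 and Ndufaf5 (log2 fold changes 0.54 and 0.59, SE 0.16 and 0.17, adjusted p = 0.237 in limma for both), and 45 members at p under 0.05, all 45 higher. Ndufa1, a small accessory subunit of complex I, stood at 401, 380.3 and 353 TPM in the control, 457, 549 and 361 TPM in the ethanol, 453, 389.5 and 435 TPM in the stress and 364, 592 and 511 TPM in the ethanol + stress libraries. Ndufaf5, an assembly factor of complex I, stood at 60.9, 52.04 and 55.5 TPM in the control, 59.1, 84.5 and 54.8 TPM in the ethanol, 66.4, 51.9 and 61.1 TPM in the stress and 51.9, 88.3 and 80.9 TPM in the ethanol + stress libraries. In both, ethanol + stress replicate 1 lay apart from replicates 2 and 3. The same omission raised the share of all genes called to 4.14% and that at p under 0.05 to 18.2%. With the trend over transcript length removed and all libraries kept, 0 members were called (1.02% of all genes) and 3 were at p under 0.05 (5.81%). With the trend removed and that library left out, 1 was called (4.6%) and 12 were at p under 0.05, 9 of them higher (16.5%). With all libraries rescaled to a common total and that library left out, 2 were called (4.34%) and 16 were at p under 0.05, 13 of them higher (19.8%).

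**Figure D2:**
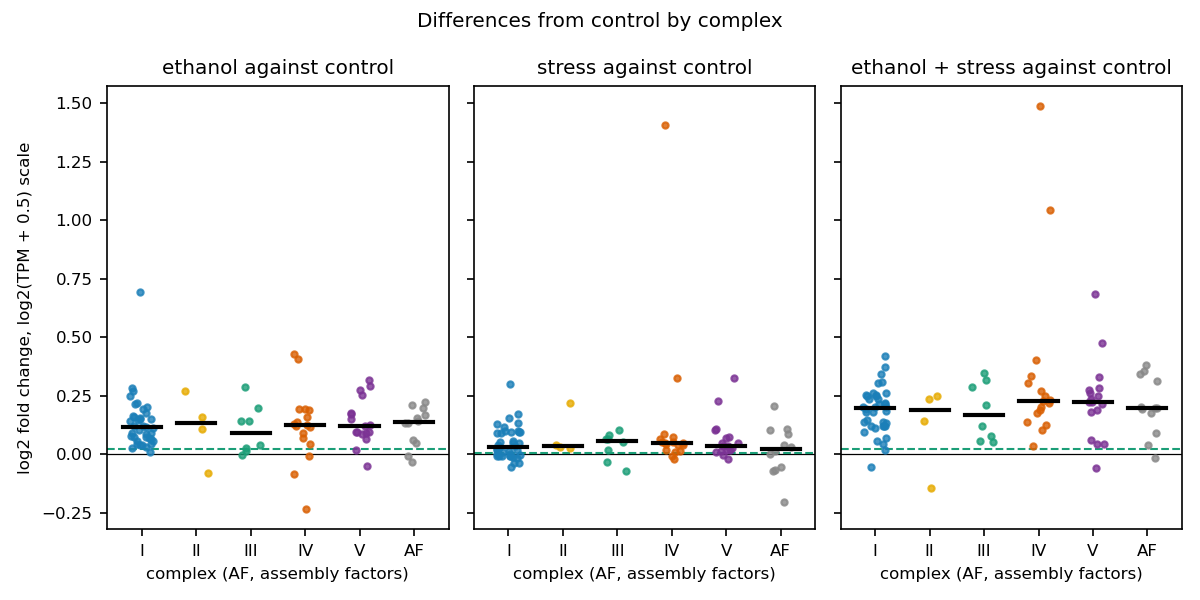
Log2 fold change of each member (points) against control on the log2(TPM + 0.5) scale, by complex, for ethanol, stress and ethanol + stress; black bars are medians and the dashed line is the median of all genes tested. The medians of the complexes lie between 0.09 and 0.14 for ethanol, 0.02 and 0.06 for stress and 0.16 and 0.23 for ethanol + stress.

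Complex I, the entry point for electrons from NADH, had summed levels of 11655, 10966 and 10663 TPM in the control, 11979.9, 15759.7 and 9673 TPM in the ethanol, 12994, 10087 and 11532 TPM in the stress and 9973, 15124 and 14200.3 TPM in the ethanol + stress libraries. The control values lay within the range of each treated group. Its 38 members had median log2 fold changes of 0.11 for ethanol, 0.03 for stress and 0.20 for ethanol + stress, with 38, 27 and 37 positive values. With the trend of each library over transcript length removed they were -0.01, -0.02 and 0.03, and with libraries rescaled to a common total 0.03, 0.01 and 0.07. The length correction thus turned the sign of the first 2. Ndufa4 and Ndufa4l2 made up 8.69% to 10.6% of the sum, and the 36 members without them had medians of 0.11, 0.02 and 0.19. Ndufa4 stood at 1007, 961 and 927 TPM in the control, 1104, 1639 and 871 TPM in the ethanol, 1294, 911 and 1049 TPM in the stress and 924, 1594 and 1323 TPM in the ethanol + stress libraries. The 3 control values overlapped with those of each treated group (log2 fold change 0.37, SE 0.24, adjusted p = 0.791 in limma for ethanol + stress). The ratio of the highest to the lowest library had a median of 1.65 over the 29 accessory subunits (1.21 to 2.09) and of 1.34 over the 7 core subunits (1.11 to 1.70), so that the ranges overlapped. The highest accessory ratios were 2.09 for Ndufb4, 2.06 for Ndufb8 and 2.03 for Ndufb2. The Ndufb4 values are uncertain because of a pseudogene named below. Ndufs1, the large iron-sulfur subunit that takes part in the first electron transfers, was flat at 146, 139 and 146 TPM in the control, 143, 151 and 146 TPM in the ethanol, 147, 136 and 145 TPM in the stress and 143, 142 and 152 TPM in the ethanol + stress libraries, a ratio of 1.11. Among the other core subunits, Ndufv1 had a ratio of 1.34, Ndufs8 of 1.69 and Ndufv2 of 1.70.

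Ndufa4l2, the paralog of Ndufa4 that is known as a target of hypoxia-inducible factor, behaved apart from the shared shift. It stood at 5.26, 1.82 and 2.03 TPM in the control, 5.22, 5.15 and 3.90 TPM in the ethanol, 2.55, 4.84 and 3.35 TPM in the stress and 2.61, 3.82 and 3.26 TPM in the ethanol + stress libraries. The ethanol values were tight, while control replicate 1 was as high as any ethanol library, so that the groups overlapped (log2 fold change 0.69, SE 0.32, adjusted p = 0.997 in limma for ethanol against control). Without control replicate 1 the difference was 1.11 (SE 0.25, adjusted p = 0.9905 in limma), which rests on 2 control libraries and was called at an unadjusted p under 0.01 (0.711% of all genes). Without control replicate 2 it was 0.45.

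Complex II, succinate dehydrogenase, links the citric acid cycle to the respiratory chain and has no subunit encoded in mitochondrial DNA. Its summed levels were 727, 699 and 704 TPM in the control, 735, 846 and 683 TPM in the ethanol, 790.1, 708 and 717 TPM in the stress and 672, 812 and 785 TPM in the ethanol + stress libraries. Its 4 members had median log2 fold changes of 0.13, 0.03 and 0.19 for ethanol, stress and ethanol + stress. With the trend of each library over transcript length removed they were 0.05, 0.02 and 0.09, and with libraries rescaled to a common total 0.05, 0.02 and 0.05. Sdhc, a membrane anchor (chr1:171127165-171150603, minus strand), stood at 76.7, 79.5 and 76.3 TPM in the control, 92.01, 111 and 79.9 TPM in the ethanol, 99.3, 87.4 and 84.7 TPM in the stress and 74.97, 101 and 100.5 TPM in the ethanol + stress libraries. All ethanol and all stress values lay above all control values, while ethanol + stress replicate 1 lay below them. The differences did not pass the test (log2 fold change 0.27, SE 0.14, adjusted p = 0.997 in limma for ethanol, and log2 fold change 0.22, SE 0.14, adjusted p = 0.9998 in limma for stress). Without ethanol replicate 2 the ethanol difference was 0.15. Sdha, the flavoprotein that oxidizes succinate, ran against the rest of the set, at 255, 252 and 266 TPM in the control, 247, 217 and 269 TPM in the ethanol, 273, 279.6 and 242 TPM in the stress and 259, 215 and 226 TPM in the ethanol + stress libraries. Its highest value was in stress replicate 2 and its lowest in ethanol + stress replicate 2, libraries in which most members were low and high, respectively.

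Complex III, which hands electrons from ubiquinol to cytochrome c, had summed levels of 4115, 3884 and 3658 TPM in the control, 4196, 5753 and 3295 TPM in the ethanol, 4583, 3562 and 3996 TPM in the stress and 3394, 5609 and 5096 TPM in the ethanol + stress libraries. Its 8 members had median log2 fold changes of 0.09, 0.06 and 0.16. After the same length correction they were -0.02, -0.02 and 0.03, and with libraries rescaled to a common total 0.01, 0.04 and 0.03. The correction again turned the sign for ethanol and for stress. Uqcrh stood at 1035, 944 and 949.8 TPM in the control, 1101, 1580.4 and 803 TPM in the ethanol, 1203, 881 and 998.9 TPM in the stress and 845, 1559 and 1364 TPM in the ethanol + stress libraries, with overlap between control and each treated group (log2 fold change 0.32, SE 0.26, adjusted p = 0.793 in limma for ethanol + stress). Uqcrc1, a core protein, stood at 155, 145 and 139.5 TPM in the control, 149.8, 169 and 127 TPM in the ethanol, 154, 131 and 145 TPM in the stress and 133, 164 and 161 TPM in the ethanol + stress libraries. Its range was narrower, with a highest over lowest ratio of 1.33 against 1.97 for Uqcrh and 2.02 for Uqcr10.

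Complex IV, cytochrome c oxidase, had summed levels of 10775, 10257 and 9675 TPM in the control, 10970.0, 14837 and 8873 TPM in the ethanol, 11977, 9177 and 10671 TPM in the stress and 8968, 14412 and 13725 TPM in the ethanol + stress libraries. Its 17 members had median log2 fold changes of 0.13, 0.05 and 0.23, with 14, 15 and 17 positive values. These became -0.01, -0.01 and 0.05 with the length trend removed, the first 2 with the sign turned, and with libraries rescaled to a common total they were 0.04, 0.03 and 0.09. With Ndufa4 and Ndufa4l2 counted in, the medians of the then 19 members were 0.13, 0.05 and 0.23. Cox8a stood at 2224, 2131 and 1859.8 TPM in the control, 2161, 2889.5 and 1832 TPM in the ethanol, 2403, 1963 and 2183 TPM in the stress and 1926, 2809 and 2734 TPM in the ethanol + stress libraries. Cox4i1, which takes part in the regulation of the enzyme by ATP, stood at 1548, 1480.2 and 1402 TPM in the control, 1622, 2377 and 1239 TPM in the ethanol, 1743, 1299 and 1581 TPM in the stress and 1274, 2278 and 2208 TPM in the ethanol + stress libraries. In both genes ethanol + stress replicates 2 and 3 lay above the controls and replicate 1 did not (log2 fold change 0.25, SE 0.21, adjusted p = 0.793 in limma for Cox8a, and log2 fold change 0.33, SE 0.26, adjusted p = 0.791 in limma for Cox4i1).

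The smallest p for ethanol + stress among complex IV members came from Cox7b2, a low gene known from testis (chr5:71442824-71548205, minus strand), with 1.41, 2.33 and 0 TPM in the control, 1.66, 1.53 and 0.937 TPM in the ethanol, 0.959, 0.763 and 1.24 TPM in the stress and 3.30, 5.25 and 2.22 TPM in the ethanol + stress libraries, where control replicate 3 is listed at 0. Ethanol + stress replicate 3 lay below control replicate 2, so that the groups overlapped (log2 fold change 1.49, SE 0.52, adjusted p = 0.791 in limma for ethanol + stress). Without control replicate 2 the ethanol + stress difference was 2.00 (SE 0.49, adjusted p = 0.907 in limma), past the threshold for a call (0.684% of all genes), and without control replicate 3, which is listed at 0, it was 0.75. At these levels the fold change depends on the value of 0.5 added before the logarithm, and it was 2.28 with 0.1 and 1.14 with 1. Cox8b, the muscle form (chr7:140898945-140900446, minus strand), had 7.76, 1.56 and 8.05 TPM in the control, 21.4, 7.67 and 0 TPM in the ethanol, 10.3, 23.7 and 9.90 TPM in the stress and 8.04, 42.5 and 2.99 TPM in the ethanol + stress libraries, with 0 listed in ethanol replicate 3. All stress values lay above all control values (log2 fold change 1.40, SE 1.23, adjusted p = 0.9998 in limma), but the spread within groups was the widest of any member, at 1.82 on the log2 scale, and without control replicate 2 the stress difference was 0.73.

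Complex V, the ATP synthase, had summed levels of 10241, 9705 and 9474 TPM in the control, 10560.3, 13631 and 8543 TPM in the ethanol, 11255, 8871 and 10228 TPM in the stress and 8827, 13149 and 12304 TPM in the ethanol + stress libraries. Its 17 members had median log2 fold changes of 0.12, 0.04 and 0.22, with 16, 15 and 16 positive values. Removal of the length trend left 0.01, -0.01 and 0.04, with the sign turned for stress, and with libraries rescaled to a common total they were 0.04, 0.02 and 0.09. Atp5b was nearly flat at 1731, 1655 and 1597 TPM in the control, 1706, 1817 and 1534 TPM in the ethanol, 1817, 1529.6 and 1671 TPM in the stress and 1579.6, 1762 and 1797 TPM in the ethanol + stress libraries. Atp5a1, the alpha subunit that forms the catalytic head with Atp5b, stood at 392, 403 and 401 TPM in the control, 389.6, 389 and 375 TPM in the ethanol, 401, 372 and 406 TPM in the stress and 389.6, 373 and 383 TPM in the ethanol + stress libraries. All ethanol and all ethanol + stress values of Atp5a1 lay below the control values, with log2 fold changes of -0.05 and -0.06 (SE 0.08 for both, adjusted p = 0.997 and 0.832 in limma). With libraries rescaled to a common total they were -0.13 and -0.20, and that for ethanol + stress was -0.31 when ethanol + stress replicate 1 was also left out. With the 20 highest genes removed before rescaling they were -0.10 and -0.14, and without ethanol replicate 3 that for ethanol was -0.03. The within-group SD of 0.04 was the lowest of any member. Atp5e, the short epsilon subunit, showed a highest over lowest ratio of 2.29.

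Atp5g2, the least abundant of the 3 subunit c genes (chr15:102662864-102672352, minus strand), had the smallest p of any member for ethanol + stress. It stood at 38.9, 28.7 and 29.99 TPM in the control, 33.5, 58.6 and 28.9 TPM in the ethanol, 31.7, 35.1 and 48.5 TPM in the stress and 48.9, 58.3 and 49.7 TPM in the ethanol + stress libraries. All 3 ethanol + stress values lay above all 3 control values, including replicate 1, in which most other members were low (log2 fold change 0.68, SE 0.24, adjusted p = 0.791 in limma). In ethanol replicate 2 it reached 58.6 TPM and in stress replicate 3 48.5 TPM, while the other ethanol and stress libraries lay within the control range (log2 fold changes 0.25 and 0.23, SE 0.24). The interaction was 0.21 (SE 0.34). Fitted with the control and ethanol + stress libraries alone, the difference kept its size and passed the threshold for a call (adjusted p = 0.778 in limma), as 0.917% of all genes did. It also passed without ethanol replicate 2 or ethanol replicate 3 (adjusted p = 0.6997 and 0.717 in limma, with 1.17% and 1.05% of all genes called). With the length trend removed it was 0.52, with libraries rescaled to a common total 0.55, and with the trend removed and ethanol + stress replicate 1 left out 0.43. The other subunit c genes, Atp5g1 and Atp5g3, had log2 fold changes of 0.04 and 0.18 for ethanol + stress, and whether they differ from that of Atp5g2 was not tested. Atp5s, a coupling factor, had values of 30.05, 21.02 and 22.5 TPM in the control, 35.2, 28.6 and 25.1 TPM in the ethanol, 33.2, 26.3 and 32.4 TPM in the stress and 25.02, 31.03 and 36.7 TPM in the ethanol + stress libraries, with log2 fold changes of 0.27, 0.32 and 0.33 (SE 0.18, adjusted p = 0.997, 0.9998 and 0.791 in limma). The ethanol difference was 0.42 without control replicate 1, 0.17 without control replicate 2 and 0.14 without ethanol replicate 1.

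Among the 12 assembly factors, summed levels were 432, 424 and 396 TPM in the control, 443, 542 and 385 TPM in the ethanol, 447, 378 and 444 TPM in the stress and 380.4, 561 and 515 TPM in the ethanol + stress libraries, and the median log2 fold changes were 0.14, 0.02 and 0.20. Without the length trend the medians were 0.06, 0.02 and 0.17, and on a common total 0.06, 0.01 and 0.06. Sdhaf3, an assembly factor of complex II (chr6:6956004-7042979, plus strand), stood at 5.15, 5.41 and 5.18 TPM in the control, 6.43, 6.31 and 4.86 TPM in the ethanol, 5.52, 5.05 and 5.64 TPM in the stress and 5.94, 8.13 and 6.46 TPM in the ethanol + stress libraries. All 3 ethanol + stress values lay above the control values (log2 fold change 0.34, SE 0.15, adjusted p = 0.791 in limma). The difference was 0.22 without ethanol + stress replicate 2 and 0.22 with libraries rescaled to a common total. With ethanol + stress replicate 1 left out it was 0.22 after rescaling and 0.52 with the length trend removed. Ndufaf4, a complex I assembly factor and one of the genes with the NRF1 letters, stood at 25.1, 26.01 and 24.6 TPM in the control, 24.1, 30.6 and 24.7 TPM in the ethanol, 22.2, 23.4 and 30.7 TPM in the stress and 27.3, 29.6 and 29.9 TPM in the ethanol + stress libraries, again with all ethanol + stress values above control (log2 fold change 0.19, SE 0.13, adjusted p = 0.791 in limma). That difference was 0.06 with libraries rescaled to a common total, 0.01 when ethanol + stress replicate 1 was also left out, and 0.10 with protein-coding transcripts alone. Ndufaf8, another complex I assembly factor, had the smallest interaction p of any member, at 49.6, 42.5 and 44.8 TPM in the control, 44.8, 49.7 and 39.6 TPM in the ethanol, 45.4, 36.1 and 37.6 TPM in the stress and 41.8, 62.9 and 51.8 TPM in the ethanol + stress libraries (log2 fold change 0.41, SE 0.21, adjusted p = 0.99997 in limma). With the trend over length removed, that interaction was 0.43 (SE 0.13, adjusted p = 0.9996 in limma), past the threshold for a call (0.51% of all genes). It was 0.04 with protein-coding transcripts alone and 0.27 without ethanol + stress replicate 2.

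Few members had groups that did not overlap. For ethanol, 1 member had all 3 values above control (Sdhc; 5.06% of all genes) and 1 below (Atp5a1; 3.19%). For stress, 2 lay above (Sdhc and Cox8b; 3.81%) and 0 below (3.39%). For ethanol + stress, 3 lay above (Atp5g2, Sdhaf3 and Ndufaf4; 5.63%) and 1 below (Atp5a1; 4.62%).

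**Figure D3:**
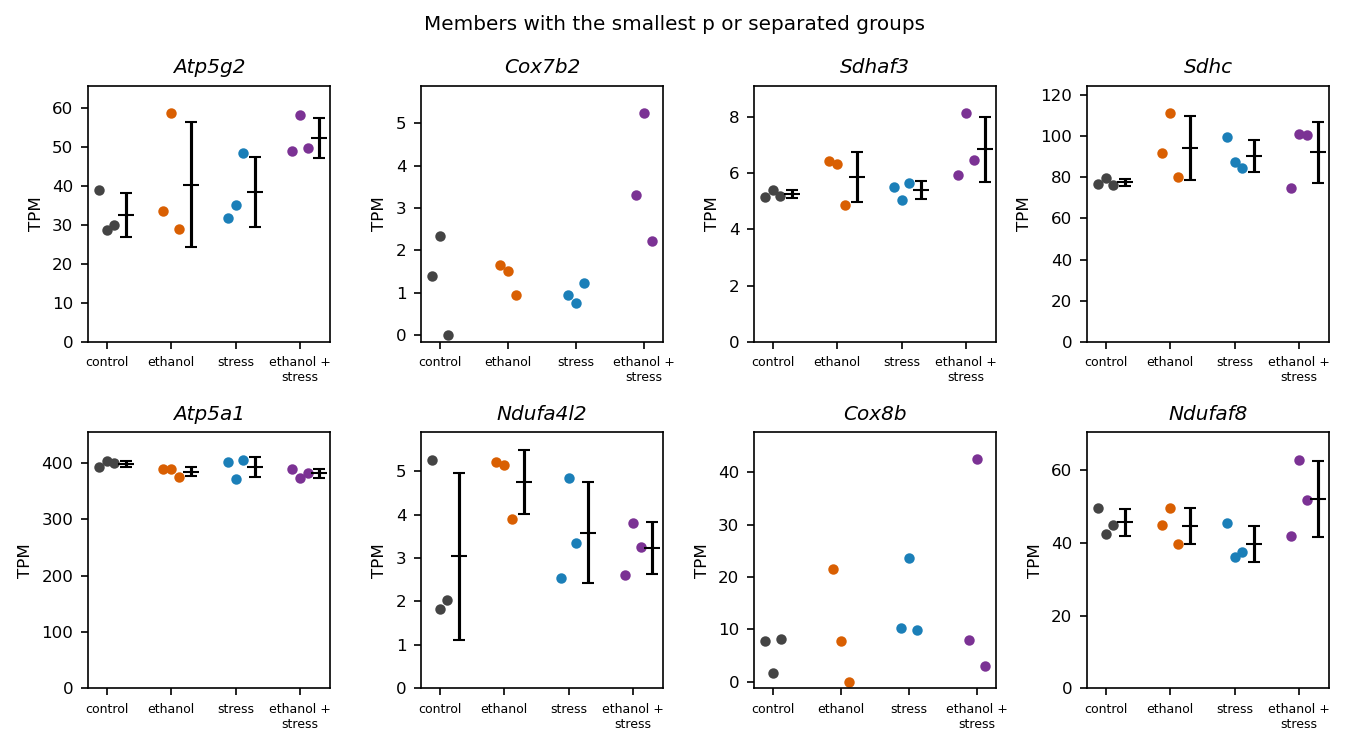
TPM of 8 members in each library (points) by group, with mean and SD (n = 3) beside the points except for Cox7b2 and Cox8b, which hold values of 0. The ethanol + stress points of Atp5g2 and Sdhaf3 all lie above the control points, those of Atp5a1 lie in a narrow band from 372 to 406 TPM in all groups, and those of Cox8b spread from 0 to 42.5 TPM.

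**Figure D4:**
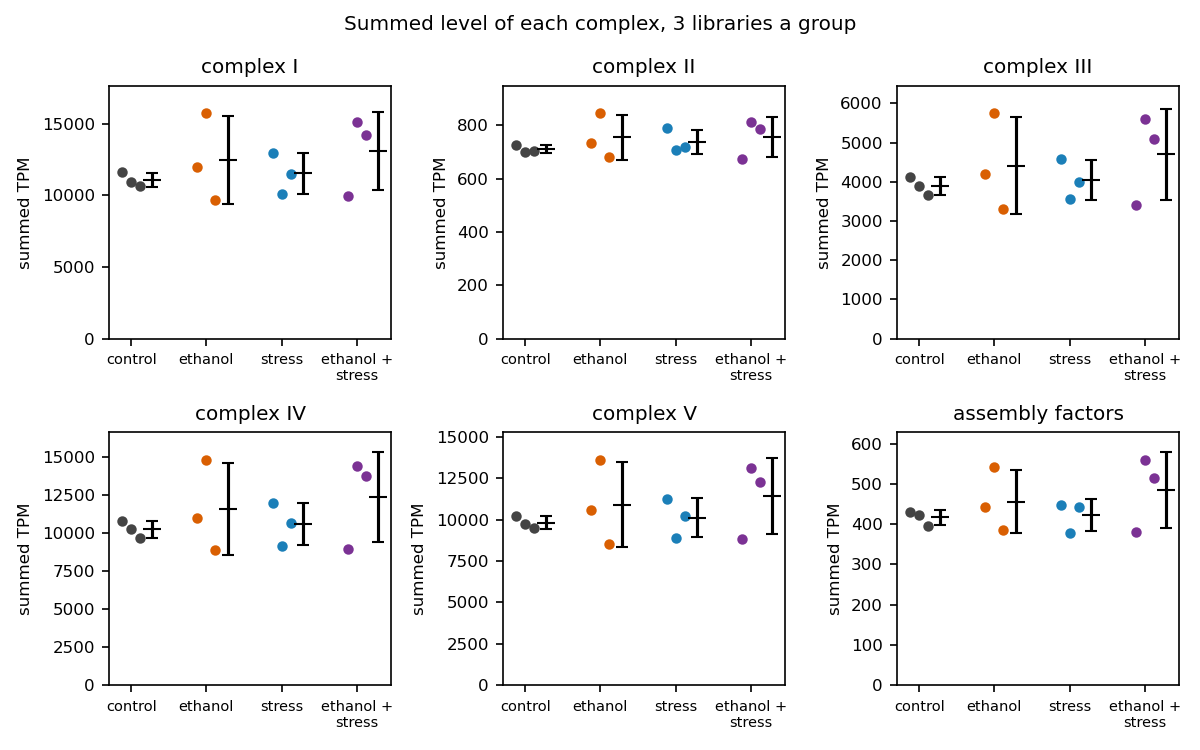
Summed TPM of the members of each complex and of the assembly factors in each library (points) by group, with mean and SD (n = 3), on axes that start at 0. The pattern of the points is alike in all panels, and in each the 3 control libraries lie inside the range of the ethanol and of the ethanol + stress libraries.

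The size of the shared shift depended on transcript length. Between the most distant libraries, ethanol replicates 2 and 3, the median log2 difference was 0.76 in the 31 members with a mean transcript length under 600 nt, 0.67 in the 37 from 600 nt to below 1000 nt, 0.48 in the 21 from 1000 nt to below 2000 nt and 0.30 in the 7 of 2000 nt or more. Across the 96 members, length on a log scale and this difference had a Pearson r of -0.50 and a Spearman rho of -0.55, a description of 2 libraries in which genes are not independent replicates. Other genes at 100 TPM or more followed the same order, with medians of 0.84, 0.65, 0.28 and -0.14 in the same classes. The group differences were smaller in each longer class up to 2000 nt, while the class of 7 longest members held few genes. For ethanol + stress the median log2 fold change was 0.25, 0.20, 0.12 and 0.19 from the shortest to the longest members, and 0.28, 0.21, 0.09 and -0.08 in the other genes at that level. For ethanol it was 0.15, 0.12, 0.07 and 0.06 in the members and 0.17, 0.12, 0.04 and -0.05 in the others. For stress it was 0.06, 0.04, 0.02 and 0.03 in the members and 0.06, 0.04, 0.01 and -0.01 in the others.

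The 3 members with the lowest within-group SD, Atp5a1, Ndufs1 and Atp5b, have mean transcript lengths of 2461, 2528 and 1664 nt, and their SDs were 0.04, 0.05 and 0.10. Sdha, at 2824 nt, had an SD of 0.12. By length class the median SD was 0.31, 0.28, 0.20 and 0.16 from the shortest to the longest members, with ranges of 0.15 to 1.82, 0.13 to 0.49, 0.10 to 0.28 and 0.04 to 0.21 that overlapped. Short members stood at either end, with 0.44 for Atp5e (422 nt) and 0.37 for Cox7c (535 nt) beside 0.15 for Uqcrb (535 nt) and 0.17 for Ndufv3 (552 nt). When the trend of each library over transcript length was removed, the median within-group SD of the members fell by more than that of all genes, to 0.12 from 0.25, against 0.20 from 0.22. The median log2 fold changes of the members were then 0.00 for ethanol, -0.01 for stress and 0.04 for ethanol + stress. Whether the length trend arose in the tissue, in the RNA or in the libraries was not tested.

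**Figure D5:**
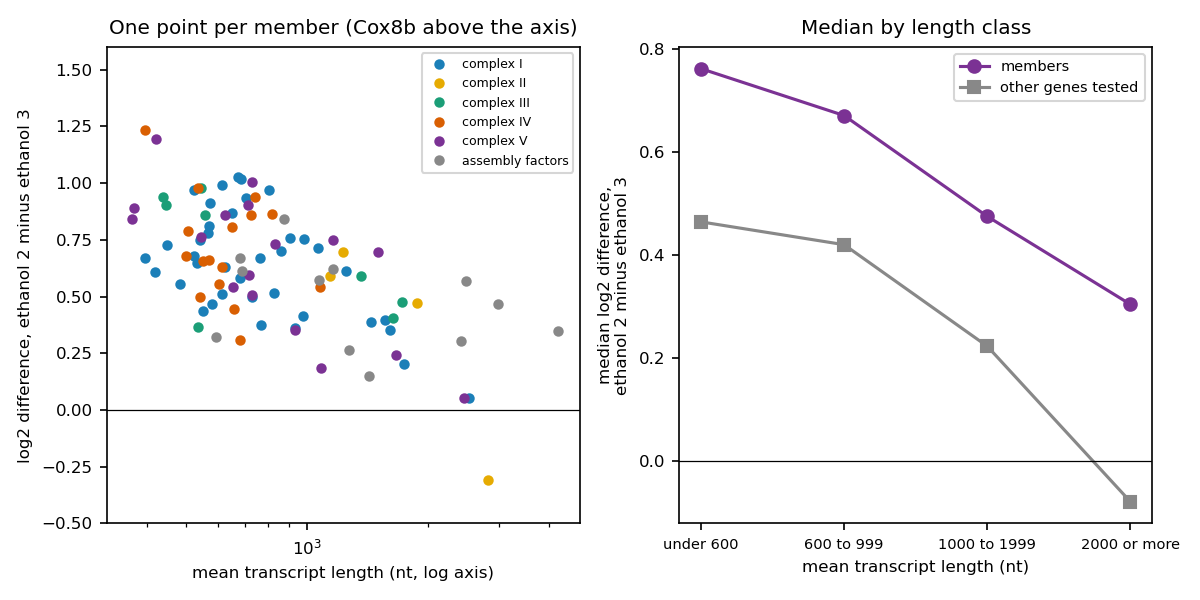
Left, log2 difference between ethanol replicates 2 and 3 for each member against its mean transcript length (nt, log axis), colored by complex, with Cox8b beyond the axis; right, medians by length class for members and for all other genes tested. The difference falls with length in both, from 0.76 to 0.30 in the members and from 0.46 to -0.08 in the other genes.

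Other genes of mitochondrial metabolism were set beside the members. The 13 subunits encoded in mitochondrial DNA had positive log2 fold changes in 13 of 13 cases after ethanol (median 0.15) and after ethanol + stress (median 0.38), and in 7 after stress (median 0.02), with 0 called in limma and 1 at p under 0.05. That gene was mt-Atp6, a subunit of the proton channel of ATP synthase, at 4990.2, 3326 and 4039.6 TPM in the control, 5945, 6867 and 3791 TPM in the ethanol, 3767, 4896 and 5953 TPM in the stress and 5236, 7927 and 8553 TPM in the ethanol + stress libraries (log2 fold change 0.80 for ethanol + stress, adjusted p = 0.791 in limma). The summed mitochondrial RNA was 5.73% to 8.34% of a library. Its sum was highest in ethanol + stress replicate 3, at 94277 TPM. In stress replicate 1, where 84 nuclear members lay above their mean, it was 58726 TPM, beside 58750 to 65731 TPM in the controls. The 78 mitochondrial ribosomal proteins, which serve the translation of those 13 subunits, had medians of 0.11, 0.03 and 0.20 for ethanol, stress and ethanol + stress, with 0 called and 0 at p under 0.05 in each. The 76 cytosolic ribosomal proteins, short and abundant like the members, had medians of 0.17, 0.05 and 0.27, also with 0 called and 0 at p under 0.05.

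The enzymes upstream of the chain varied less from library to library, with median deviations from -0.08 to 0.09 for the citric acid cycle and from -0.10 to 0.09 for glycolysis, beside -0.29 to 0.35 for the members. Their mean transcript lengths were 1324 to 3868 nt and 1134 to 3664 nt, respectively. Of the members, 31 were under 600 nt and 37 from 600 nt to below 1000 nt. The lists thus differ from the members in length as well as in pathway, and the part of length was not tested. The 13 genes of the citric acid cycle had medians of -0.00, 0.01 and -0.01, and the 16 genes of glycolysis had medians of -0.04, -0.04 and -0.10, with 0 called and 0 at p under 0.05 in limma in either list and any treatment. Citrate synthase (Cs), often used as a marker of mitochondrial content, stood at 166, 169.9 and 171 TPM in the control, 172, 151 and 170.3 TPM in the ethanol, 156, 163 and 160.2 TPM in the stress and 170.0, 145 and 157 TPM in the ethanol + stress libraries. Its log2 fold changes were -0.04, -0.08 and -0.10, at a mean transcript length of 2926 nt. Of 12 regulators of mitochondrial biogenesis, 1 was under p of 0.05 after ethanol (3.63% of all genes) and 2 after ethanol + stress (5.37% of all genes), all higher, and 0 were called. Esrra, a nuclear receptor that activates many genes of this pathway, stood at 29.9, 31.3 and 27.3 TPM in the control, 32.3, 41.3 and 35.1 TPM in the ethanol, 36.7, 28.2 and 30.9 TPM in the stress and 34.5, 40.6 and 33.2 TPM in the ethanol + stress libraries (log2 fold change 0.29 for ethanol and 0.29 for ethanol + stress, adjusted p = 0.997 and 0.791 in limma). Pprc1, a coactivator related to PGC-1alpha, had a difference of 0.44 for ethanol + stress and was the other one. Ppargc1a itself, Nrf1 and Gabpa had differences of 0.12, 0.09 and 0.05 for ethanol and of -0.01, -0.02 and 0.13 for ethanol + stress. The 12 regulators had medians of 0.09, -0.00 and 0.13 for ethanol, stress and ethanol + stress. Of them 12, 6 and 8 had positive values, beside 55.6%, 51.5% and 54.1% of all genes. Of 24 further assembly factors and carriers, including cytochrome c (Cycs), 0 were called and 1, the ATP synthase assembly factor Atpaf2, was under p of 0.05 (0.28 for ethanol + stress), with medians of 0.06, 0.02 and 0.11.

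Markers of cell types also moved between the libraries. The 6 neuronal markers ran against the members, with the highest sums in ethanol replicate 3 (3391 TPM) and ethanol + stress replicate 1 (3358 TPM) and the lowest in ethanol + stress replicates 3 (2935 TPM) and 2 (2938 TPM). The summed level of the 4 oligodendrocyte markers Mbp, Mog, Mag and Mobp was 3181 to 3584 TPM in the controls, 1997 to 4136 TPM in ethanol, 2689 to 4106 TPM in stress and 2590.2 to 4781 TPM in ethanol + stress. Its lowest value was in ethanol replicate 3, in which the members were lowest, and its highest values were in ethanol + stress replicates 2 and 3. The 2 CA1 pyramidal markers, Wfs1 and Fibcd1, ran the other way, from 53.6 TPM in ethanol + stress replicate 2 to 111 TPM in ethanol replicate 3. The 2 CA3 pyramidal markers, Grik4 and Bok, ran with the members, from 86.1 TPM in ethanol replicate 3 to 143 TPM in ethanol replicate 2 and ethanol + stress replicate 2. The 3 dentate granule cell markers, Prox1, C1ql2 and Dsp, summed to 71.4, 81.5 and 74.9 TPM in the control and 52.5, 60.97 and 71.2 TPM in the ethanol libraries. All ethanol values lay below all control values, but ethanol replicate 3 (71.23 TPM) and control replicate 1 (71.37 TPM) nearly met. Of all genes tested, 3.19% lay wholly below control for ethanol. The dentate sums were 73.1 to 89.02 TPM in stress and 67.8 to 71.6 TPM in ethanol + stress. The 5 astrocyte markers ranged from 738 TPM in ethanol replicate 3 to 1173 TPM in ethanol + stress replicate 3. The 5 microglia markers also ran with the members, from 197 TPM in ethanol replicate 3 to 261 TPM in ethanol replicate 2, 280.3 TPM in ethanol + stress replicate 2 and 308 TPM in ethanol + stress replicate 3. The 5 blood markers, which include hemoglobin genes, were 1603 to 2022 TPM in the controls and 2454 to 6815 TPM in the treated libraries, with the highest values in ethanol replicate 2 and ethanol + stress replicate 2. The 6 choroid plexus markers ranged from 41.0 to 7240 TPM without following the members. Markers of endothelial cells (4 genes), thalamus (4 genes) and striatum (5 genes) ranged from 91.9 to 121 TPM, 27.8 to 40.2 TPM and 38.8 to 70.4 TPM. No marker of these lists was at 0 in every library. The part of tissue composition in the shared shift was not tested.

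Some member values carry limits of assignment. Ndufb4, at a mean of 187 TPM, has a processed pseudogene, Ndufb4c, that was listed at 398 TPM, so that its values are uncertain. In 8 members the transcript with the largest share of the sum was not of the protein-coding type in the annotation. It was a retained intron or processed transcript in 7 (Ndufa5, Ndufc1, Ndufab1, Ndufb4, Cox5b, Atp5j and Ndufaf4) and a transcript marked for nonsense-mediated decay, which holds a coding sequence, in Ndufs4. With protein-coding transcripts alone, the median log2 fold changes of the members were 0.12, 0.04 and 0.22.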

How the data were processed

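RNA-Seq was performed on hippocampal total RNA of 12 mice. Libraries were stranded and depleted of rRNA. The authors pseudo-aligned paired-end reads to Ensembl mouse transcripts (GRCm38, mm10) with kallisto and used sleuth, whose versions are not given in the sources used here. The deposited values are a signal per transcript, namely TPM scaled between libraries, with sums of 889222 to 1173650 per library. TPM carry no read depth, so no counting error could be attached to a value, and kallisto divides reads that fit several transcripts by an estimate, which can move values between isoforms and near-identical copies. Of 115270 transcripts, 113580 were matched to GENCODE M21 by identifier (112441 with the same version), and the unmatched held 0.518% to 0.58% of a library.

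TPM were summed per gene. A gene entered the test when 6 or more libraries held 0.1 TPM or more (18434 genes), and log2(TPM + 0.5) was modelled by limma 3.58.1 under R 4.3.3 (lmFit, eBayes with trend, two-sided), in one model of the 4 groups without a replicate block. A fold change on this scale understates the change of low genes. Genes were called at an unadjusted p under 0.01, and p values were adjusted over all 18434 genes by the Benjamini-Hochberg method. The within-group SD is the pooled SD of log2 values over the 4 groups. Simulated data with known changes served to test the model. Errors in them were drawn independently for each gene, without shifts shared by the genes of a library. They therefore cannot show how the model behaves under such shifts. Python 3.11.15 with numpy 2.4.6, pandas 2.3.3 and matplotlib 3.10.9 made the tables and plots. Sequences are from RefSeq. For members the window nearest to the start of the leading transcript was used and for other genes the first listed. Named genes are members called, the 3 with the smallest p per comparison, the highest and lowest by mean in each complex, the paralogs, and the members with separated groups and the largest difference. Members shown for their range, transcript length or swing, the other genes named for p under 0.05, and Cs, Ppargc1a, Nrf1 and Gabpa, were chosen after their values were seen. The members and gene lists were chosen with earlier results of these data known. Alternatives were a value of 0.1 or 1 added before the logarithm, other filters, other scalings, removal of the trend over transcript length, protein-coding transcripts only, eBayes without trend, only the groups compared, a replicate block and leaving out each library. Alternatives chosen after seeing the data were the length trend removed, or values rescaled to a common total, without ethanol + stress replicate 1, and Ndufa4 and Ndufa4l2 counted in complex IV. The methylation data were not analysed here. Some genes, among them 1 oligodendrocyte marker of the chosen list, which was left out of the marker sum, are not reported here.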

Additional observations from a re-analysis of the deposited data

How the results depend on the processing

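With limma, 0 members were called in each of the 5 tests, and the count reached 1 or 2 under some alternatives. For ethanol + stress it was 1 when only the groups compared were fitted (Atp5g2), 1 under the replicate block (Cox7b2), 2 with values rescaled to a common total without ethanol + stress replicate 1, and 1 with the length trend removed without that library. For the interaction it was 1 with the length trend removed (Ndufaf8). Leaving out each library in turn gave 0 to 1 called members for ethanol, 0 for stress, 0 to 2 for ethanol + stress, 0 to 1 for the interaction and 0 to 1 for any difference. Of all genes, 0.901% were called under the block, 0.456% for the interaction without control replicate 1 (Ndufa4l2) or 3 (Cox7b2), and 0.548% to 0.857% for any difference without control replicate 1, 2 or 3 or ethanol replicate 2. The cause of these changes was not tested. The same omissions moved the median log2 fold change of the members from -0.05 to 0.29 for ethanol, -0.04 to 0.13 for stress, 0.09 to 0.39 for ethanol + stress and -0.11 to 0.22 for the interaction. For ethanol, stress and the interaction these ranges include 0. Rescaling to a common total moved the median of all genes for ethanol + stress to -0.09 from 0.02, that of the members to 0.07 from 0.20, and the gap between them to 0.16 from 0.18. For ethanol the median of the members went to 0.04 from 0.12. The sign of a median over members or over a complex changed in 14 pairs of result and alternative. In all of them the length trend was removed or 1 library was left out. Single genes were followed only in comparisons where they had 1 of the 3 smallest p or separated groups. There the sign changed in 0 pairs, and the other named genes were not followed. Medians of single complexes were not computed with 1 library left out. Counting Ndufa4 and Ndufa4l2 in complex IV changed no sign.

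The labels number the replicates within groups, but same-numbered libraries did not deviate together (correlations of -0.17 to 0.16), so the numbers were not taken as pairs. The replicate block gave 1 called member for ethanol + stress, Cox7b2 (adjusted p = 0.823 in limma), and 0 in the other 4 tests. With 3 libraries per group, the SE of an abundant short member such as Cox8a was 0.21. A difference of the size of the members' medians could not be resolved in such a gene. The within-group SD, on which the SE rests in part, ran from 0.04 to 1.82 over the members, so this limit was not equal for all.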
